A study of Mus musculus with 2 samples.

Results

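The CCN family is a group of secreted, cysteine rich proteins of the extracellular matrix that are called matricellular because they signal to cells from the matrix instead of building it. Its members Cyr61, Ctgf, Nov, Wisp1 and Wisp2 were taken by their symbols in the gene list of the files, where they made up 5 of 31053 genes, and all 5 had at least 50 UMIs (unique molecular identifiers, so that copies of a molecule count as 1) over the cells kept. The genes were measured by single cell RNA-seq of live cells sorted from hearts of mice at postnatal day 1 (P1) and day 7 (P7). Each age was 1 library. For each, 3 littermates' hearts were combined and digested with Collagenase II, for 20 min at P1 and for 45 min at P7. No genotype, treatment or injury is named for these hearts in the labels, and both libraries shared red blood cell lysis, a 7-AAD viability sort and a 3' kit. With 1 library per age no test between ages was possible, so intervals given here are 95% intervals that cover counting error only, and a difference between ages was called when it reached 2-fold. The pools also differed in sex, with 57336 Xist UMIs at P1 and 12 at P7 against 2 and 18039 UMIs of 4 Y-linked genes, and age, sex and time of digestion cannot be told apart.

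CCN proteins are built from modules that resemble insulin-like growth factor binding proteins, von Willebrand factor type C domains, thrombospondin type 1 repeats and, except in Wisp2, a C-terminal cystine knot. They bind integrins, heparan sulphate proteoglycans and low density lipoprotein receptor related proteins, and several of them modulate growth factors held in the matrix. Cyr61 and Ctgf are widely used as readouts of YAP and TAZ, the transcriptional co-activators that respond to cell shape and matrix stiffness and act through TEAD factors, and Ctgf is also a target of transforming growth factor beta in cardiac fibrosis.

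On GRCm38 (GENCODE M21) the protein-coding gene Cyr61 (ENSMUSG00000028195) lies at chr3:145646976-145649981 on the minus strand and Ctgf (ENSMUSG00000019997) at chr10:24595442-24598683 on the plus strand, where it overlaps the antisense transcript Gm15270. Whether that overlap with a transcript of the opposite strand affects counts of Ctgf was not tested. Nov (ENSMUSG00000037362) and Wisp1 (ENSMUSG00000005124) share a chromosome, at chr15:54745702-54754039 and chr15:66891320-66923201 on the plus strand, and Wisp2 (ENSMUSG00000027656) lies at chr2:163820861-163833146 on the plus strand. Their longest coding sequences measured 1137 bases for Cyr61, 1044 for Ctgf, 1062 for Nov, 1101 for Wisp1 and 753 for Wisp2, with 38, 39, 40, 38 and 29 cysteine codons. The relation between the 5 genes can be read in a stretch of 24 bases from the module that resembles insulin-like growth factor binding proteins, which occurred 1 time in each coding sequence. It is shown in coding orientation with the 13 bases that all 5 genes share in capitals:
Cyr61: GGCTGcggcTGCTGtaaggTcTGc
Ctgf: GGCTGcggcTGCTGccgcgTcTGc
Nov: GGCTGctccTGCTGtccggTgTGc
Wisp1: GGCTGtgaaTGCTGtaagaTaTGt
Wisp2: GGCTGtggcTGCTGtcgagTgTGt

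For Cyr61 the 250 bases before the start site (RefSeq, GRCm38.p6, chr3:145649986-145650235, minus strand, written in the direction of transcription) are also shown, because the YAP and TAZ targets and the immediate early genes are compared with Cyr61 further on. Capitals mark a match to the TEAD motif GGAATG, read here on the opposite strand, and a TATAAA box:
Cyr61 promoter: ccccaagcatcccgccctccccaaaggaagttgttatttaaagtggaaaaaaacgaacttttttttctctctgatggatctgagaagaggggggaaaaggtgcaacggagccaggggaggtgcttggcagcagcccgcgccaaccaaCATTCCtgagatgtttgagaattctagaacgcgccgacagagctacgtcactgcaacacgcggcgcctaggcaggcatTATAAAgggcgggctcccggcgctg
The TEAD match lay at -103 to -98 and the TATAAA box at -25 to -20 from the start site. Of 32851 mouse promoter sequences cut to the same length, 12.6% held GGAATG and 12.4% held TATAAA on either strand. The core TGACG of the cAMP response element matched at -58 to -54 on the opposite strand and was found in 17.8% of all promoters, while no match was found in these 250 bases to the AP-1 motif TGANTCA (in 6.75% of promoters) or to the CArG box (in 1.47%). The matches did not overlap, and they describe letters only.

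The files held 7836 barcodes with 63585504 UMIs at P1 and 9077 barcodes with 98346195 UMIs at P7. Barcodes were kept with 200 to 8000 genes and at most 20% mitochondrial UMIs, so that 4991 cells remained at P1 and 8511 at P7, with medians of 10875 and 10104 UMIs. The libraries shared 13 cell barcodes among the cells kept, which carried at most 53 UMIs of any member in a library. Cells were assigned to classes by gates on a few genes, and markers that the gates did not use were more than 2-fold higher in their class than in all other cells, in every class and both libraries. The gates gave 1604 and 3213 endothelial cells (P1 and P7), 1240 and 2437 fibroblasts, 115 and 314 smooth muscle cells, 193 and 346 pericytes, 50 and 26 epicardial cells and 347 and 440 leukocytes. Only 80 and 13 cells passed the cardiomyocyte gate, so levels in cardiac muscle are hardly covered. Fibroblasts were divided into Pi16 fibroblasts (95 at P1 and 1255 at P7), Gdf10 fibroblasts (70 and 37) and other fibroblasts (1075 and 1145). The first 2 groups held at least 2 UMIs of the one gene and 0 of the other. Cells with both genes therefore count as other fibroblasts. At least 2 UMIs of both were held by 7 fibroblasts at P1 and 53 at P7. Of the pericytes, 29.5% at P1 and 20.2% at P7 held at least 3 UMIs of the fibroblast gene Dcn, as did all 50 and all 26 epicardial cells. Posterior genes (Tbx4, Foxf1 or a Hox gene) and alveolar genes (of alveolar epithelium, such as Sftpc and Ager) were also tracked. A UMI of either kind was held by 1594 cells at P1 and 1036 at P7. UMIs of at least 2 alveolar genes were held by 106 and 8 cells. Whether such cells came from lung tissue was not tested.

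Over all cells kept, Nov was 3.49-fold higher at P7, and no other member reached 2-fold. Nov stood at 110.3 counts per 1000000 UMIs (CPM) in the P1 library and 385 in the P7 library, and its log2 ratio of P1 over P7 was -1.80 (interval -1.84 to -1.76). Cyr61 measured 298 and 364 CPM (-0.29, interval -0.32 to -0.26) and Wisp2 measured 11.1 and 19.2 CPM (-0.78, interval -0.92 to -0.66). Ctgf was the only member whose interval lay on the side of P1, with 129.9 and 116 CPM (0.17, interval 0.13 to 0.21), whereas Wisp1, with 15.5 and 14.4 CPM, had an interval that included 0 (-0.02 to 0.23). Thus 1 of 5 members was called, towards P7, where 6.79% of the 15075 genes with at least 50 UMIs were called towards P1 and 3.43% towards P7. The small ratio of Ctgf changed side, to -0.10, without the cells described further on that carry Fmod, Scx or Wif1. Without the same cells Wisp2 passed 2-fold towards P7, at -1.27 over all cells and -1.21 in fibroblasts.

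**Figure D1:**
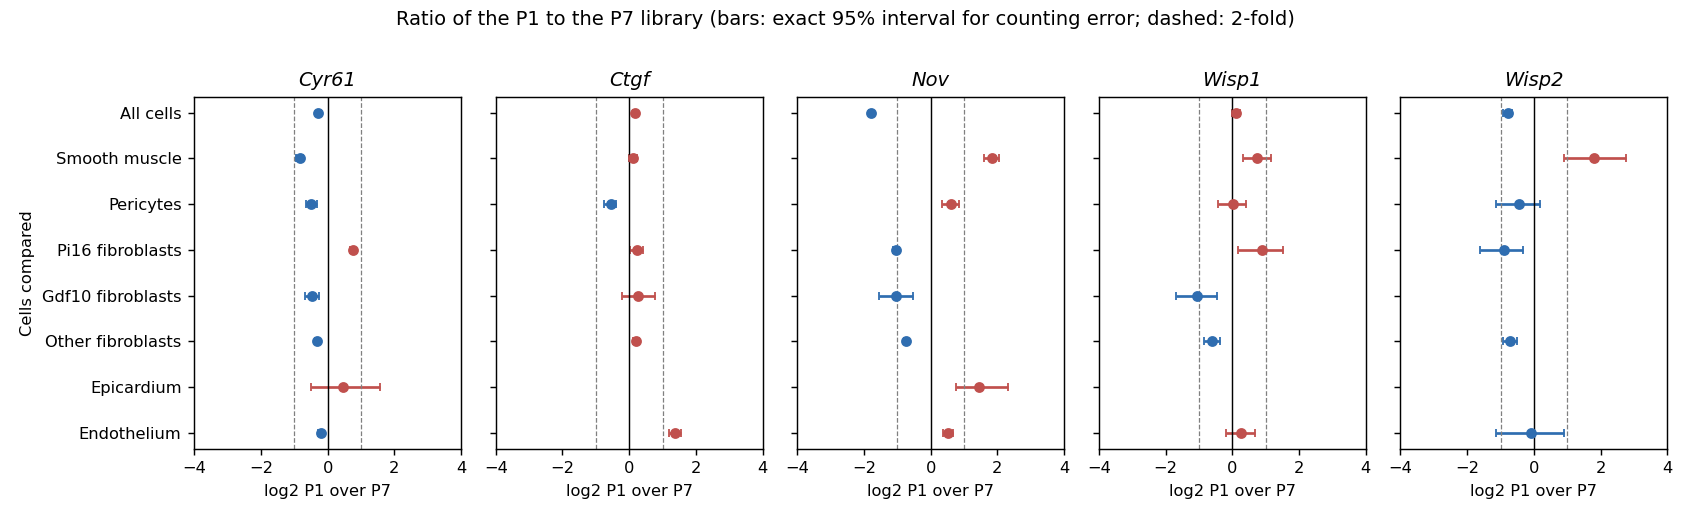
Log2 ratio of the P1 over the P7 library (x axis) for each member in all cells and in 7 gated classes (y axis). Points are ratios of summed UMIs, bars are 95% intervals for counting error and dashed lines mark 2-fold. Nov lies on the P7 side in all cells and fibroblasts and on the P1 side in smooth muscle, pericytes, epicardium and endothelium.

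The classes differed in direction. In endothelium 1 of the 4 members with at least 50 UMIs was called, Ctgf towards P1, where 4.09% of genes were called towards P1 and 2.79% towards P7. In fibroblasts as a whole 1 of 5 was called, Nov towards P7 (background 3.59%, and 4.66% towards P1). The same gene was the 1 of 5 called in Pi16 fibroblasts, also towards P7 (4.28%, and 3.94% towards P1), a call that 3 alternatives ended. In Gdf10 fibroblasts 2 of 4 were called, Nov and Wisp1, both towards P7 (2.03%, and 2.48% towards P1), whereas other fibroblasts had 0 of 5 (2.48% towards P7 and 3.2% towards P1). The calls in Gdf10 fibroblasts rest on 67 and 74 UMIs of Nov and 46 and 52 of Wisp1. Nov was called towards P1 in smooth muscle, as 1 of 4 (3.79%, and 2.46% towards P7), and in epicardium, where it was the only member with enough UMIs, 105 and 18 (3.95%, and 2.51% towards P7). No member of 5 was called in pericytes (1.96% towards P1 and 1.42% towards P7). Among pericytes with under 3 Dcn UMIs, 136 cells at P1 and 276 at P7, Cyr61 (-1.03), Nov (1.13) and Wisp1 (1.12) were past 2-fold. These ratios rest on 97 and 355 UMIs of Cyr61, 103 and 84 of Nov and 45 and 37 of Wisp1. This subset was chosen after the data had been seen, and the share of all genes past 2-fold in it was not computed. In leukocytes Nov, with 12 and 39 UMIs, was 1 of 2 called, towards P7 (7.03%, and 3.48% towards P1).

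**Figure D2:**
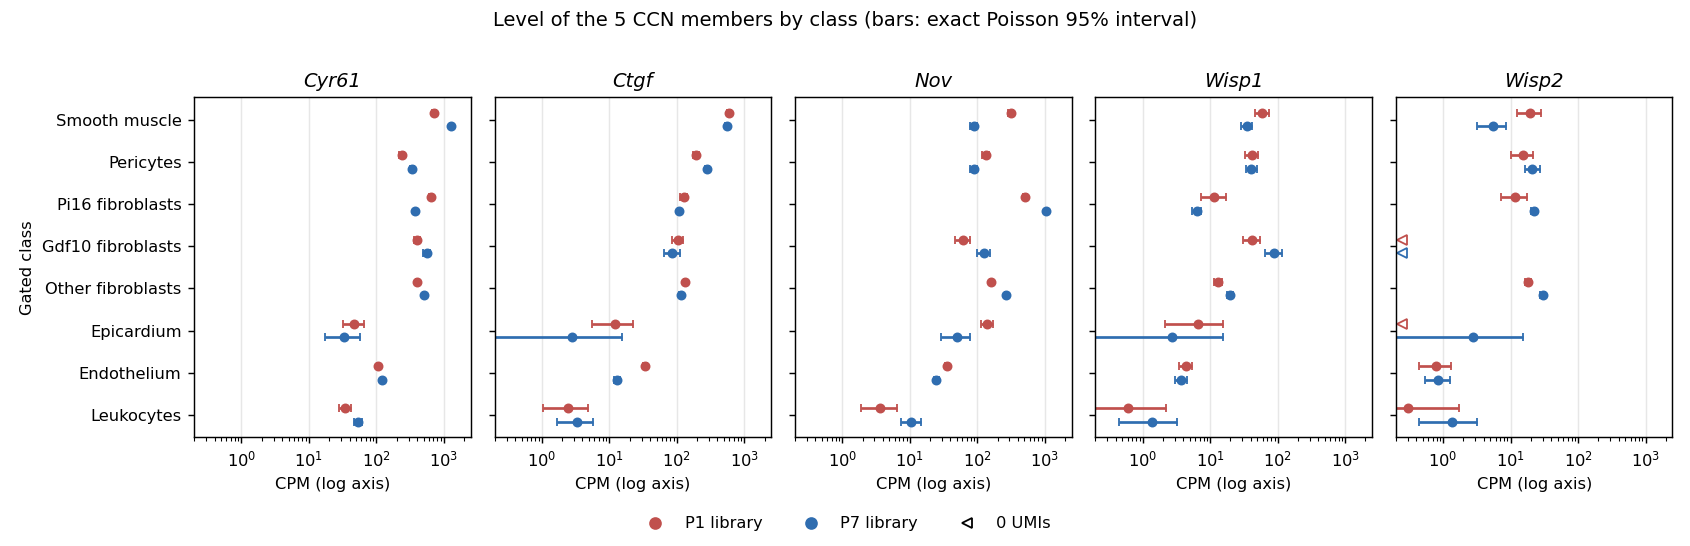
Level of each member in CPM (x axis, log scale) in 8 gated classes (y axis) of the P1 and P7 libraries. Points are CPM of summed UMIs, bars are exact Poisson 95% intervals, open triangles at the left edge mark 0 UMIs and bars that reach that edge run on below it. Among these 8 classes Cyr61 and Ctgf peak in smooth muscle, Nov in Pi16 fibroblasts, and Wisp1 at P7 in Gdf10 fibroblasts.

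Cyr61 encodes a ligand of integrins that is induced within minutes of serum or mechanical stimulation and is needed for vessel formation. Levels are ordered here over the 8 classes of the plot of levels, which leave out glia, cardiomyocytes, cells in 2 gates and cells in no gate. They do not set apart the Fmod, Scx and Wif1 cells described further on, which lie across the gates. Among these 8 classes smooth muscle had the highest level of Cyr61 in both libraries. The P1 library held 719 CPM there (interval 674 to 765) and the P7 library 1285 CPM (interval 1247 to 1324), which gave a ratio of -0.84 (-0.94 to -0.74). The lead of smooth muscle over the next class was small at P1, 0.18 on the log2 scale over Pi16 fibroblasts (0.06 to 0.30), and larger at P7, 1.21 over Gdf10 fibroblasts (1.05 to 1.38). In Pi16 fibroblasts the direction between ages was the opposite, with 634 CPM at P1 and 377 CPM at P7 (0.75). Gdf10 fibroblasts measured 399 and 554 CPM and other fibroblasts 399 and 502 CPM, and these 2 groups could not be told apart at either age by their intervals. Fibroblasts as a whole differed little, with 422 CPM at P1 and 432 at P7 (-0.03). That sum joins groups with opposed directions whose shares also differed, with Pi16 fibroblasts 7.66% of fibroblasts at P1 and 51.5% at P7.

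Lower levels of Cyr61 were found in pericytes (237 and 333 CPM, -0.49), where 370 of the 467 UMIs at P1 lay in the 57 cells with at least 3 Dcn UMIs, endothelium (106 and 122 CPM, -0.20) and epicardium (46.6 and 33.1 CPM, from 35 and 12 UMIs). Leukocytes, which served as the class taken as background, stood at 34.4 and 53.1 CPM, and by level epicardium could not be distinguished from them at either age. The leukocyte level was raised by few cells, with 23 of 113 UMIs at P1 and 40 of 195 at P7 in 1 cell. After each cell had been thinned to 2000 UMIs, 50.9% of smooth muscle cells at P1 and 63.1% at P7 held a Cyr61 UMI, against 3.35% and 3.62% of leukocytes. Unthinned, the shares were 70.4% and 76.8% in smooth muscle (median 11517 and 9816.5 UMIs per cell) and 10.1% and 10.5% in leukocytes (median 7737 and 6649.5).

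Ctgf, whose product promotes matrix deposition, was also highest in smooth muscle among these 8 classes, with 594 CPM in the P1 and 549 CPM in the P7 library, and the interval of that ratio included 0 (0.11, -0.01 to 0.23). Pericytes came next in both libraries, with 191 and 282 CPM (-0.56, interval -0.74 to -0.38), 1.63 below smooth muscle on the log2 scale at P1 and 0.96 at P7. Of these pericyte UMIs, 226 of 377 at P1 and 466 of 834 at P7 lay in the 57 and 70 cells with at least 3 Dcn UMIs. Pericytes under that limit stood at 132 and 180 CPM, and at P1 this was level with other fibroblasts (133 CPM). The 3 fibroblast groups lay close together, between 103 and 133 CPM at P1 and between 85.9 and 115 CPM at P7. Grouped by Gdf10 alone, whatever their Pi16 count, fibroblasts differed more. At P7 Ctgf measured 101 CPM with 0 Gdf10 UMIs, 255 with 4 to 9 and 526 with 10 or more (231 UMIs in 24 cells). At P1 these values were 125, 193 and 102 CPM, and the highest was 422 CPM with 2 Gdf10 UMIs. In leukocytes Ctgf was close to absent, with 2.44 and 3.27 CPM from 8 and 12 UMIs. Epicardium held 9 and 1 UMIs, so that no direction can be read there.

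The one member called in endothelium was Ctgf, at 33.9 CPM at P1 and 13.1 CPM at P7 (1.37, interval 1.18 to 1.56). Its UMIs there were few and concentrated, with 93.6% of the 640 UMIs at P1 in 161 of 1604 cells. Endothelial cells with a UMI of the endocardial type gene Npr3 had the highest level, 75.5 CPM at P1 and 57.3 at P7, and their number was 217 at P1 and 59 at P7. In endothelial cells with the capillary type gene Aplnr the ages lay side by side, with 11.4 and 10.5 CPM (0.12, -0.22 to 0.45), whereas endothelial cells outside these subgroups measured 51.1 and 19.1 CPM (1.41). The ratio of the whole class was 0.63, under 2-fold, when cells that met a pair of gates were counted in both.

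Cyr61 and Ctgf followed each other closely over the classes. Across the 8 disjoint classes in both libraries, 16 points that share depth and library, the Pearson correlation of their log2(CPM + 1) was 0.93, against 0.32 to 0.86 for the other pairs of members. Within smooth muscle thinned to 2000 UMIs, Ctgf was detected in 60.7% of cells with Cyr61 and in 22.2% of cells without it at P1, and in 47.7% and 28.3% at P7. In fibroblasts the corresponding shares were 22.1% and 7.45% at P1, and 17.3% and 11.2% at P7. For Nov and Cyr61 in fibroblasts they were 18.5% and 16.4% at P1, and 40.7% and 45.3% at P7, so that detection of Nov differed little with that of Cyr61.

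Because Cyr61 is an immediate early gene and the digestions differed in length, its level was set beside 18 listed genes of the immediate early and heat shock responses. Within each class and library, cells were divided into tertiles by the share of their UMIs in that list. The level of Cyr61 was ordered by tertile in every class and library examined. In fibroblasts it measured 121, 433 and 673 CPM from the lowest to the highest tertile at P1 and 159, 402 and 705 CPM at P7. In smooth muscle the values were 208, 947 and 1045 CPM at P1 and 615, 1288 and 1863 CPM at P7, so that P7 was higher in each tertile. Tertiles of equal rank were not matched in the list's share of UMIs. In smooth muscle that share was 0.51%, 1.32% and 2.34% at P1 and 0.26%, 1.08% and 1.88% at P7.

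Ctgf was ordered in the same way in fibroblasts (57.3, 115 and 213 CPM at P1, and 85.5, 109.9 and 131 CPM at P7) and in pericytes (105, 191 and 262 CPM at P1, and 149, 224 and 429.7 CPM at P7). In P1 endothelium the order was the reverse, with 60.2 CPM in the lowest tertile and 16.2 CPM in the highest. Ctgf was in neither order in P7 endothelium (12.3, 10.9 and 15.8 CPM) and in P1 smooth muscle (269, 895 and 643 CPM). P7 smooth muscle was ordered as fibroblasts were (373, 463 and 789 CPM). The summed level of the list was 6705 CPM at P1 and 6798 CPM at P7 over all cells, 7071 and 7457 CPM in fibroblasts, and 13655 and 11098 CPM in smooth muscle. In smooth muscle Cyr61 was therefore higher in the library in which the list was lower. Fos, a subunit of AP-1, measured 3187 and 2520 CPM there and Egr1, a zinc finger factor, 972 and 591 CPM. The part of dissociation in the level of Cyr61 was not tested.

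**Figure D3:**
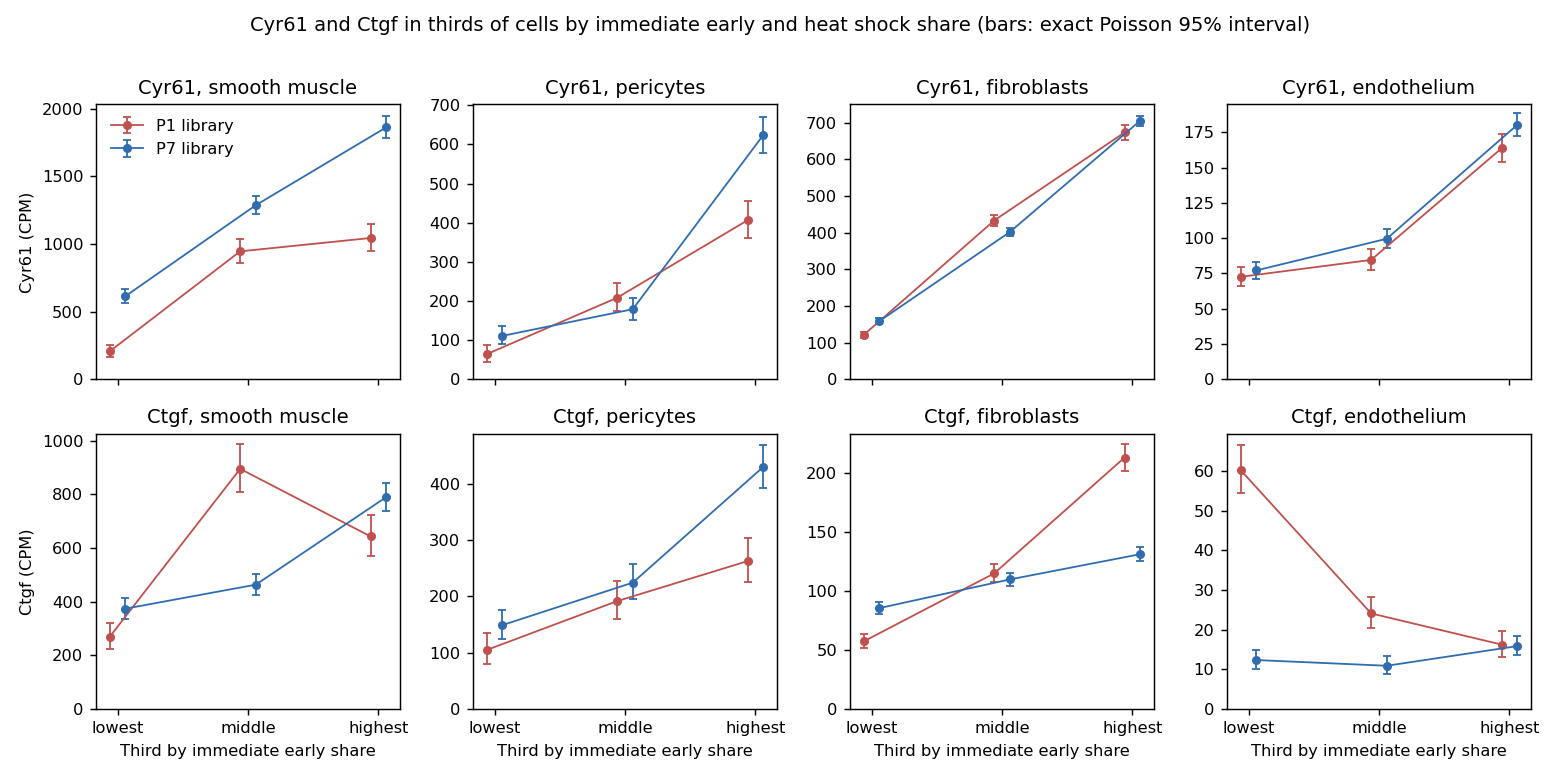
Level of Cyr61 (upper row) and Ctgf (lower row) in CPM (y axis) in tertiles of cells ordered by their share of immediate early and heat shock UMIs (x axis), for 4 classes and both libraries. Bars are exact Poisson 95% intervals. Cyr61 is highest in the highest tertile in every panel, and Ctgf in P1 endothelium is highest in the lowest tertile.

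Nov encodes a protein that binds integrins and Notch1 and is described as a counterpart of Ctgf in fibrosis. Among the classes compared its level was highest in Pi16 fibroblasts in both libraries. Pi16 marks adventitial fibroblasts in many tissues. Nov measured 515 CPM in these cells at P1 (interval 484 to 548) against 1055 CPM at P7 (interval 1042 to 1068). The ratio, -1.03 (-1.13 to -0.94), lay just past 2-fold and was under it without cells holding another class's anchor gene (-0.91), without cells with alveolar or posterior genes (-0.93) and without the Fmod, Scx and Wif1 cells described further on (-0.81). At P7 this exceeded other fibroblasts, the next class, by 1.99 on the log2 scale (1.94 to 2.04), and at P1 it exceeded smooth muscle, the next class there, by 0.72 (0.56 to 0.89). After thinning, 33.7% of Pi16 fibroblasts at P1 and 61.5% at P7 held a Nov UMI, against 0.915% and 3.14% of leukocytes. Unthinned, these shares were 58.9% and 87.1% in Pi16 fibroblasts (median 19621 and 18258 UMIs), and 3.46% and 8.18% in leukocytes. The UMIs of Pi16 fibroblasts were more concentrated at P1, with 62.0% of 1026 in 10 of 95 cells. At P7, 36.5% of 24725 lay in 126 of 1255 cells.

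Other fibroblasts measured 159 and 266 CPM (-0.74) and Gdf10 fibroblasts 60.6 and 125 CPM (-1.04), so all 3 fibroblast groups had more Nov at P7. The Gdf10 ratio rests on 67 and 74 UMIs (interval -1.54 to -0.54), and 74.3% of those at P7 lay in 4 of 37 cells. Of the P7 UMIs 21 lay in 1 cell with a posterior gene, and without such cells the levels were 53.8 and 92.6 CPM. After thinning, 10.0% and 13.5% of Gdf10 fibroblasts held a Nov UMI. Within fibroblasts the level of Nov went with the number of Pi16 UMIs per cell. At P7 it was 234 CPM in fibroblasts with 0 Pi16 UMIs, 322 with 1, 537 with 2, 509 with 3, 721 with 4 to 9 and 1460.4 with 10 or more. At P1 the corresponding values were 136, 239.9, 404, 704, 419 and 502 CPM, which did not go on increasing above 3 UMIs. The median depth of these cells lay between 14324 and 21914 UMIs at P1 and between 14277 and 19398 at P7.

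**Figure D4:**
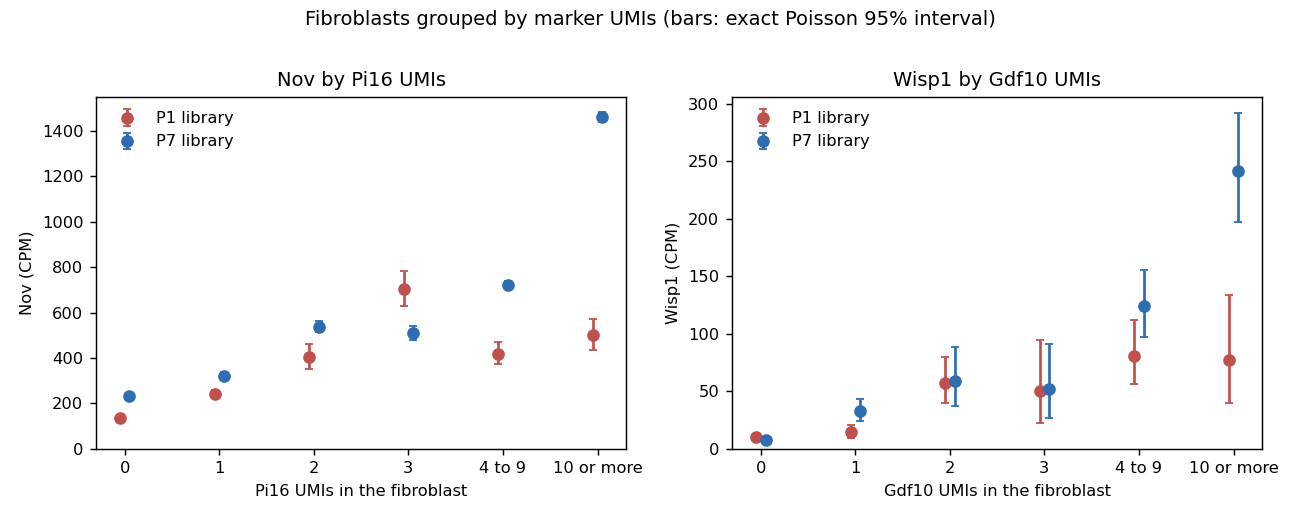
Level in CPM (y axis) of Nov in fibroblasts grouped by Pi16 UMIs per cell (left, x axis) and of Wisp1 in fibroblasts grouped by Gdf10 UMIs per cell (right, x axis), with exact Poisson 95% intervals as bars. At P7 Nov reaches its highest value, and so does Wisp1, in cells with 10 or more UMIs of the marker.

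The share of the fibroblast groups differed between the libraries as well. Pi16 fibroblasts were 7.66% of fibroblasts at P1 (interval 6.24 to 9.28) and 51.5% at P7 (49.5 to 53.5), and after thinning 5.48% and 35.5% of fibroblasts held a Pi16 UMI. Of all Nov UMIs, Pi16 fibroblasts held 15.8% at P1 and 66.0% at P7, and other fibroblasts held 41.5% and 12.2%. The difference of 274 CPM between the libraries could be divided over the classes, cells in 2 gates and cells in no gate. Of it, 129.6 CPM came with the shares of UMIs taken by each of these groups and 145 CPM with the level of Nov within them. Cells in 2 gates gave 22.8 CPM of the latter part and cells in no gate 33.8 CPM. In these mixed groups level and make-up cannot be told apart. Pi16 fibroblasts alone added 17.4 CPM to the level of the P1 library and 254 CPM to that of the P7 library. A share of cells in a sorted suspension depends on the digestion and the sort, and its part in this difference was not tested.

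**Figure D5:**
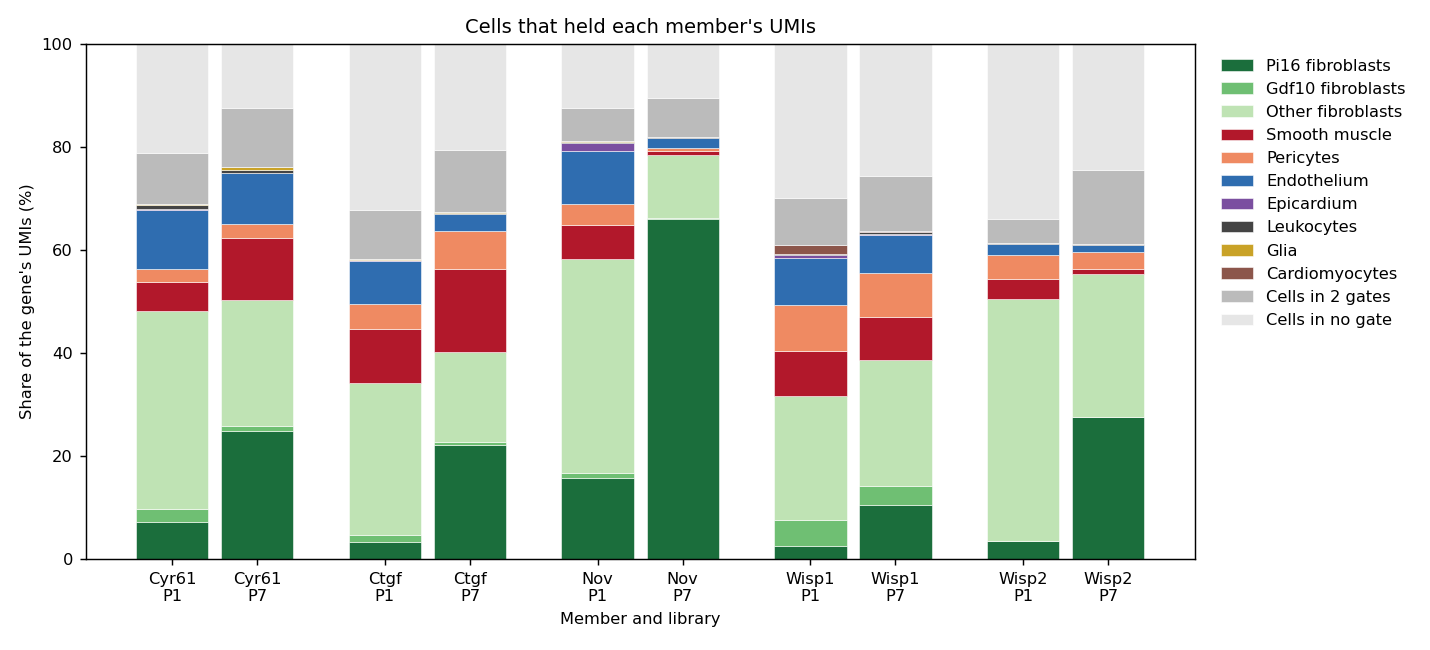
Share of each member's UMIs (y axis, percent) held by 10 gated classes, by cells in 2 gates and by cells in no gate, for each member and library (x axis). For Nov the part of Pi16 fibroblasts is 15.8% at P1 and 66.0% at P7, and for Ctgf the part of cells in no gate is 32.2% at P1.

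In the mural cells, endothelium and epicardium Nov was higher at P1. Smooth muscle measured 312 CPM at P1 and 88.2 CPM at P7 (1.82, interval 1.61 to 2.04), pericytes 135 and 89.0 CPM (0.60), endothelium 35.9 and 24.9 CPM (0.53) and epicardium 139.8 and 49.7 CPM (1.46, interval 0.76 to 2.30). In smooth muscle most UMIs came from few cells, with 72.4% of the 424 UMIs at P1 in 12 of 115 cells and 99.3% of the 292 UMIs at P7 in 32 of 314 cells. At P7, 242 of those 292 UMIs lay in the 31 smooth muscle cells with at least 3 Dcn UMIs. In the 283 cells under that limit Nov stood at 17.0 CPM, against 329.8 CPM in the corresponding 108 cells at P1 (4.26). When cells that met a pair of gates were counted in both, the ratio was 0.60 in smooth muscle, under 2-fold, and on the side of P7 in pericytes (-0.48) and endothelium (-0.82). The ratio in epicardium rests on 105 and 18 UMIs, with 54.3% of those at P1 in 5 of 50 cells. After thinning, 9 of 50 epicardial cells at P1 and 2 of 26 at P7 held a Nov UMI. In epicardium, 60.0% of cells at P1 and 34.6% at P7 held a UMI of a posterior gene (Tbx4, Foxf1 or a Hox gene), and without such cells the ratio was 2.31. It was under 2-fold with 2 UMIs of every anchor gene (0.21) and with cells in 2 gates counted in both (0.38).

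Wisp1 encodes a secreted protein first found as a gene induced by Wnt1 and promotes proliferation of fibroblasts and osteoblast precursors. It was sparse, with 914 UMIs at P1 and 1403 at P7 in all cells. Among fibroblasts its level followed Gdf10, a member of the transforming growth factor beta superfamily. Gdf10 fibroblasts, which hold 0 Pi16 UMIs by their gate, held 5.03% of Wisp1 UMIs at P1 and 3.71% at P7, whereas cells in no gate held 29.9% and 25.6%. Grouped by Gdf10 alone, fibroblasts at P7 held 74 Wisp1 UMIs in 35 cells with 4 to 9 Gdf10 UMIs and 106 in 24 cells with 10 or more. At P1 these were 35 UMIs in 24 cells and 12 in 10 cells. Cells with both Gdf10 and Pi16 were left out unevenly, so the Gdf10 class is not cut alike at P1 and P7. In Gdf10 fibroblasts Wisp1 measured 41.6 CPM at P1 (46 UMIs in 70 cells) and 87.6 CPM at P7 (52 UMIs in 37 cells), which gave a ratio of -1.07 (-1.68 to -0.47). At P7 this was 1.10 above pericytes, the next class, on the log2 scale (0.60 to 1.58). At P1 smooth muscle, Gdf10 fibroblasts and pericytes, with 58.9, 41.6 and 41.1 CPM, could not be ordered, since the intervals of both steps included 0.

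By Gdf10 UMIs per fibroblast, Wisp1 at P7 measured 7.38 CPM with 0, 124 CPM with 4 to 9 and 241 CPM with 10 or more, and at P1 10.2 CPM with 0, 80.4 CPM with 4 to 9 and 76.8 CPM, from 12 UMIs, with 10 or more. Pi16 fibroblasts had low Wisp1 in both libraries (11.6 and 6.31 CPM), and other fibroblasts, which include cells with both Pi16 and Gdf10, measured 13.03 and 19.9 CPM (-0.61). In smooth muscle it was higher at P1 (58.9 and 35.1 CPM, 0.75, interval 0.32 to 1.17), and in pericytes the levels were nearly equal (41.1 and 40.95 CPM, 0.01). Leukocytes held 2 and 5 UMIs. Part of the P1 signal lay in cells with a UMI of a posterior gene, where pericytes had 113.6 CPM in 36 cells and Gdf10 fibroblasts 113.6 CPM in 12 cells, against 26.3 and 29.6 CPM in those without. Without such cells, the ratio in pericytes was -0.74 and that over all cells -0.16, both on the side of P7. Other alternatives put pericytes on the side of P1, with 1.12 in those with under 3 Dcn UMIs, 0.56 after thinning, 0.62 as the mean of per-cell CPM and 0.45 without the 6% of cells with the most UMIs.

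Wisp2, which lacks the C-terminal module and is described as an inhibitor of smooth muscle growth and of fibrosis, was detected in few cells, 188 of 4991 at P1 and 355 of 8511 at P7. Its UMIs were concentrated, with 69.3% of them at P1 in the top 49 cells and 75.5% at P7 in the top 85 cells, 1% of cells in each library. Other fibroblasts measured 18.2 and 30.1 CPM (-0.72, interval -0.93 to -0.52) and Pi16 fibroblasts 11.6 and 22.1 CPM (-0.91). Gdf10 fibroblasts, which hold 0 Pi16 UMIs by their gate, had 0 Wisp2 UMIs in 70 cells at P1 and in 37 cells at P7, which allows shares of cells with a UMI of up to 4.29% and 8.11% and levels of up to 2.71 and 5.05 CPM. By summed UMIs other fibroblasts stood 6.71-fold above the limit of the level at P1 and 5.96-fold above it at P7. By cells, other fibroblasts held a Wisp2 UMI in 7.26% at P1 and 8.12% at P7, so at P7 the shares could not be told apart. Without the Fmod, Scx and Wif1 cells described further on, other fibroblasts measured 9.85 and 25.4 CPM. Fibroblasts grouped by Gdf10 alone, whatever their Pi16 count, did hold Wisp2 at P7, with 16 UMIs (26.8 CPM) in 35 cells with 4 to 9 Gdf10 UMIs and 6 UMIs (13.7 CPM) in 24 cells with 10 or more. In smooth muscle 26 UMIs at P1 and 18 at P7 gave 19.2 and 5.44 CPM (1.80, interval 0.89 to 2.77), with all of the P1 UMIs in 6 of 115 cells and 14 of them in cells with at least 3 Dcn UMIs. With cells in 2 gates counted in both, that ratio was 0.48, under 2-fold, and the ratio in Pi16 fibroblasts was -0.04 after thinning. Endothelium was near 0, at 0.79 and 0.85 CPM.

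A group of cells that crossed the gates carried much of the Ctgf and Wisp2. Cells with UMIs of at least 2 of Fmod, Scx and Wif1, genes of tendon and valve type connective tissue, were chosen after values had been seen and numbered 282 at P1 and 159 at P7. They made up 5.65% and 1.87% of cells and held 35.3% and 18.1% of Ctgf UMIs and 48.5% and 24.1% of Wisp2 UMIs. Ctgf measured 639 and 792 CPM in them (-0.31), Cyr61 910.2 and 924 CPM (-0.02, interval -0.10 to 0.05) and Wisp2 75.4 and 175 CPM (-1.21, interval -1.43 to -1.004). Ctgf was thus higher in them than in smooth muscle (594 and 549 CPM). Cyr61 was higher than in smooth muscle at P1 (719 CPM) but not at P7 (1285 CPM). Nov was low, at 34.1 and 88.5 CPM (-1.38), and Wisp1 measured 34.1 and 62.9 CPM (-0.88). Here 2 of 5 members were called, Nov and Wisp2, both towards P7, where 1.73% of all genes tested were called towards P7 and 2.41% towards P1. Without these cells, Ctgf in fibroblasts measured 85.3 CPM at P1 and 97.7 at P7, the opposite order to that of all fibroblasts (131 and 109.9 CPM), and all 30 Wisp2 UMIs of P1 pericytes were gone.

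In fibroblasts other targets of YAP and TAZ did not share a direction. Of 23 targets listed without Cyr61 and Ctgf, 22 had at least 50 UMIs in fibroblasts. Of these 2 were called towards P1, 0 towards P7 and 20 lay within 2-fold, where 4.66% of all genes were called towards P1 and 3.59% towards P7. The median log2 ratio of the 22 targets was 0.01, against 0.02 for all genes tested. The genes with the widest ratios there were Nt5e, which makes adenosine at the cell surface (24.1 and 5.04 CPM, 2.26), Igfbp3, an insulin-like growth factor binding protein (162 and 42.0 CPM, 1.95), and Axl, a receptor tyrosine kinase (211 and 367 CPM, -0.79). In endothelium 2 of 20 targets were called towards P1 and 1 towards P7, against 4.09% and 2.79% of all genes. The median of the 20 targets was 0.25, on the side of P1, against -0.06 for all genes tested there. The target called towards P7 was Ankrd1, a nuclear ankyrin repeat protein (2.70 and 10.1 CPM, -1.89). Those towards P1 were Nt5e (4.77 and 1.35 CPM, 1.81) and the matrix protein Ccdc80 (90.3 and 40.9 CPM, 1.14). Of the YAP and TAZ pathway genes, 0 of 13 in fibroblasts and 0 of 12 in endothelium reached 2-fold, and the widest ratios were those of the TEAD cofactors Vgll3 in fibroblasts (25.1 and 45.7 CPM, -0.86) and Vgll4 in endothelium (132 and 180.1 CPM, -0.45).

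Of 14 receptors of CCN proteins, 12 had enough UMIs in fibroblasts, with 3 called towards P1, 1 towards P7 and 8 within 2-fold, a median of -0.04. Of all genes tested in fibroblasts, 4.66% were called towards P1 and 3.59% towards P7. Itga6, an integrin subunit for laminin (15.4 and 7.39 CPM, 1.06), and the proteoglycan Sdc4 (148 and 71.5 CPM, 1.05) were higher at P1, as was Notch1 (28.0 and 13.9 CPM, 1.013). In endothelium 0 of 11 reached 2-fold, where the widest ratio was that of Sdc4 (20.1 and 10.5 CPM, 0.93).

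Of 10 Wnt/beta-catenin targets 4 were called towards P1 and 1 towards P7 over all cells, against 6.79% and 3.43% of all genes. For the counts by class below, the shares of all genes called towards P1 and P7 were 4.66% and 3.59% in fibroblasts. They were 4.09% and 2.79% in endothelium, and 1.96% and 1.42% in pericytes. Within classes, of the Wnt/beta-catenin targets 1 of 6 in fibroblasts was called, the transcription factor Lef1 towards P1 (5.33 and 1.21 CPM, 2.13), and 1 of 4 in endothelium, Sp5 (1.70 and 0.67 CPM, from 32 and 19 UMIs). Of 12 transforming growth factor beta targets 5 were called towards P1 and 0 towards P7 in smooth muscle, against 3.79% and 2.46% of all genes. Among those 5, chosen after their values were seen, were Tgfbi (369.8 and 3.93 CPM, 6.50) and the matrix protein Ltbp2 (58.2 and 3.63 CPM, 3.95). The cells compared were not alike in posterior genes, a UMI of which was held by 24.3% of smooth muscle cells at P1 and 5.41% at P7. In endothelium these shares were 23.2% and 15.8%. In pericytes 1 of the 12 transforming growth factor beta targets was called, towards P1. Of the same 12 in fibroblasts, 1 was called towards P1, the actin binding protein Tagln (254 and 107.5 CPM, 1.24), and 1 towards P7. In endothelium 4 of 12 were called, all towards P1, among them the matrix protein Tgfbi (88.4 and 25.95 CPM, 1.77) and the cell cycle inhibitor Cdkn1a (108 and 50.9 CPM, 1.09). Of the immediate early and heat shock genes 2 of 18 were called in fibroblasts, the factors Klf2 (456 and 1316 CPM, -1.53) and Klf4 (194 and 437 CPM, -1.17), both towards P7, and 0 of 17 in endothelium. In mural cells most calls of that list were towards P1, with 4 towards P1 and 1 towards P7 of 16 in smooth muscle and 3 of 16, all towards P1, in pericytes.

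The genes whose levels followed each member most closely over the same 16 points, among 13018 genes with at least 200 UMIs, were as follows. For Cyr61 they were Mamdc2 (0.95), Pi15 (0.94), Synpo (0.94), Ncs1 (0.94) and Gpc6 (0.93). For Ctgf they were Ppp1r14a (0.97), an inhibitor of myosin phosphatase, Gm17501 (0.97), Fjx1 (0.97), Gpc6 (0.96) and Foxc2 (0.95), each of which peaked in smooth muscle. For Nov they were Ccdc6 (0.93), Pdxdc1 (0.92), Pamr1 (0.92), Fhl1 (0.91) and Fstl1 (0.91), each with its highest level in Pi16 fibroblasts. Wisp1 was followed by Egflam (0.95), Ift81 (0.94), Mrps17 (0.91) and Cops4 (0.91), and Wisp2 less closely by A730056A06Rik (0.86), Sept5 (0.86), Rabif (0.84), Cyp26a1 (0.84) and Wif1 (0.83). These correlations describe class sums of 2 libraries and carry no test.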

How the data were processed

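Live cells from P1 and P7 hearts were profiled with 1 library per age. The authors aligned the reads to mm10 (GRCm38) with Cell Ranger 3.1.0, per the submitters' processing notes and the methods, and deposited UMI counts per gene and barcode without normalisation. The members and gene lists were chosen with earlier results of these data known. Harmony and MAST, used in the study, were not run.

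Cells were kept with 200 to 8000 genes and at most 20% mitochondrial UMIs. The gates were Cdh5 and Pecam1 for endothelium, Pdgfra and at least 3 Dcn UMIs for fibroblasts, at least 2 Myh11 UMIs and Acta2 for smooth muscle, Kcnj8 and Pdgfrb for pericytes, at least 2 Upk3b UMIs for epicardium, Ptprc and Laptm5 for leukocytes, and 2% of UMIs in Myh6, Myh7, Tnnt2 and Actc1 for cardiomyocytes. Pi16 and Gdf10 fibroblasts held at least 2 UMIs of the one gene and 0 of the other. Cells in 2 gates were left out, except that epicardium took precedence over fibroblasts. No doublet caller was run, and an alternative left out the 6% of cells with the most UMIs. UMIs were summed per class to counts per 1000000 UMIs with exact Poisson intervals, shares have Clopper-Pearson intervals, and ratios have 0.5 counts added to each sum and an exact conditional binomial interval. A ratio needs at least 20 UMIs and the list counts at least 50. A share or level at 0 is given with the limit of 3 counts. Thinning to 2000 UMIs dropped 574 shallower P1 cells and 727 shallower P7 cells. Ratios and intervals were tested only on simulated Poisson counts, the model that the intervals assume. That test cannot show whether they hold where UMIs are concentrated in few cells.

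Named genes are the 5 members and Wisp3, at most the 3 genes of each list with the widest ratio in fibroblasts and in endothelium, Fos and Egr1, the 5 genes most like each member, and marker genes; Notch1 was added after its value was seen. Some genes that this rule names, and the gate and values of glia, are not reported here. Python 3.11.15 was used with numpy 2.4.6, scipy 1.17.1, pandas 2.3.3 and matplotlib 3.10.9. Of the members, only Cyr61 was matched in the RefSeq promoter table. Alternatives varied the mitochondrial limit, the gates, the depth, the scaling, the weighting of cells, cells with posterior or alveolar genes, doublets and the counts added, and 4 more were chosen after the data had been seen.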

Additional observations from a re-analysis of the deposited data

Results flagged for a closer look

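Each member had classes on both sides of 0 in its ratio between the ages, with intervals that excluded 0, and in no case was the difference between classes itself tested. For Cyr61 the log2 ratio of P1 over P7 was 0.75 in Pi16 fibroblasts and -0.84 in smooth muscle, a difference of 1.59, with 1 class on the side of P1 and 5 on that of P7. For Ctgf it was 1.37 in endothelium and -0.56 in pericytes, a difference of 1.93. For Nov, 4 of 7 classes lay on the side of P1 and 3, the fibroblast groups, on that of P7, with the widest difference, 2.86, between smooth muscle and Gdf10 fibroblasts. In Gdf10 fibroblasts the ratio of Nov rests on 67 and 74 UMIs. For Wisp1 the ratio was 0.90 in Pi16 fibroblasts and -1.07 in Gdf10 fibroblasts, a difference of 1.97. The first of these rests on 23 UMIs at P1, of which 12 lay in 1 cell, and was -0.21 with 2 UMIs of every anchor gene. For Wisp2 it was 1.80 in smooth muscle and -0.91 in Pi16 fibroblasts, a difference of 2.71, which rests on 26 and 18 UMIs in smooth muscle. With cells in 2 gates counted in both the former was 0.48, and after thinning the latter was -0.04.

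Wisp3, the remaining gene of the CCN family in mice, was not among the members compared. It had 4 UMIs in the cells kept at P1 and 9 UMIs at P7, above the limit of 3 counts.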

How the results depend on the processing

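Of the main ratios recomputed under alternatives, 116 stayed within the interval of the value reported and 38 moved beyond it. Of the other ratios 411 stayed and 103 moved, and no called ratio changed sign. The class with the highest mean level of the libraries was the same under all 17 alternatives for Cyr61, Ctgf and Nov and under 16 for Wisp1 and Wisp2. Among these, the alternatives that varied the counts added apply to ratios and could not change that class. Over all cells, thinning to 2000 UMIs gave log2 ratios of -0.20 for Cyr61, 0.45 for Ctgf, -1.75 for Nov, 0.47 for Wisp1 and -0.24 for Wisp2. The mean of per-cell CPM gave -0.22, 0.40, -1.72, 0.29 and -0.54 in the same order. Without the 6% of cells with the most UMIs, Ctgf stood at 0.26, Nov at -1.87, Wisp1 at 0.25 and Wisp2 at -0.61. Without cells with alveolar or posterior genes Wisp1 stood at -0.12 and Wisp2 at -0.66, and without posterior genes alone Nov stood at -1.85 and Wisp1 at -0.16. Without the Fmod, Scx and Wif1 cells the values were -0.48 for Cyr61, -0.10 for Ctgf, -1.76 for Nov and -1.27 for Wisp2. In Pi16 fibroblasts Nov stood at -1.53 when thinned, -1.24 as per-cell mean, -1.16 without the deepest cells, -1.27 with cells in 2 gates counted in both and -1.30 with 1 UMI of Pi16 as the limit. It was under 2-fold, at -0.91 without cells holding another class's anchor gene, -0.93 without alveolar or posterior genes and -0.81 without the Fmod, Scx and Wif1 cells. Wisp2 in other fibroblasts stood at -1.09 with cells in 2 gates counted in both and at -1.36 without the Fmod, Scx and Wif1 cells. In smooth muscle Cyr61 stood at -0.96 with 2 UMIs of every anchor, -1.20 with cells in 2 gates counted in both, -0.54 when thinned and -1.002 in cells with under 3 Dcn UMIs, and Ctgf at -0.041 and -0.22 under the first 2 of these. The cause of these shifts was not tested.

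No paired analysis was possible because each age had 1 library, with no replicate numbers shared between ages. Leaving out a replicate was not possible for the same reason. The alternatives on posterior genes alone, 1 UMI of Pi16 or Gdf10, Dcn in mural cells and the Fmod, Scx and Wif1 cells were chosen after seeing the data. Depth limits Wisp1 and Wisp2 most, along with epicardium (50 and 26 cells) and Gdf10 fibroblasts (70 and 37 cells), in which the number of members past 2-fold went from 2 to 0 with cells in 2 gates counted in both.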

Other observations

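Within endothelium Cyr61 differed between subgroups. Cells with a UMI of the arterial type gene Gja5 measured 335 CPM at P1 (35 cells) and 224 CPM at P7 (146 cells), a log2 ratio of 0.58 (0.29 to 0.86). Cells with Npr3 measured 119 and 250.4 CPM (-1.08, interval -1.34 to -0.81), from 217 and 59 cells, with 54 of the 188 UMIs at P7 in 1 cell and a Cyr61 UMI in 41.5% of cells at P1 and 39.0% at P7, and cells with Aplnr 77.8 and 105 CPM (-0.44).

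Cells in no gate, 1046 at P1 and 1190 at P7 with medians of 2877 and 2808 UMIs, had Ctgf at 394 and 291 CPM and Wisp2 at 35.7 and 57.2 CPM. Of these cells 116 and 76 were among the cells with Fmod, Scx or Wif1. In the 80 P1 cardiomyocytes Wisp1 had 15 UMIs in 8 cells, 30.3 CPM.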
